A study of Mus musculus with 42 samples.

Results

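Contractile smooth muscle and pericyte genes were described here through 10 genes: Acta2, Tagln, Myh11, Cnn1, Myl9, Tpm2, Des, Rgs5, Cspg4 and Lmod1. They were picked by symbol, and all 10 were found, in a count table of 55011 genes (43853 with any count). The table covers 42 mouse libraries in 15 groups from visceral adipose tissue (VAT) or from cells cultured from it. Every group has 3 libraries except the VmSC5-derived transferred cells and both groups of floating adipocytes, which have 2.

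The stromal cells carried the allele labelled Pparg-Tdt. Fresh cells of the sorted stromal populations labelled VmSC4 and VmSC5 were sequenced directly, and the same populations were sequenced after 8 days in adipogenic medium. Transferred cells had been placed in Kaeda recipient mice and were sorted again as VmSC4-derived VmSC4, VmSC4-derived VmSC5 or VmSC5-derived VmSC5. A further pair of VmSC5 groups, also in adipogenic differentiation, was labelled with Treg and without Treg; the series' design text describes the addition as medium conditioned by VAT regulatory T (Treg) cells. Another pair of VmSC5 groups in adipogenic differentiation received PBS or oncostatin M (OSM), a cytokine of the interleukin-6 family, at 10 ng/mL. Floating adipocytes, the buoyant fraction of digested VAT, came from Pparg-Tdt:Foxp3-DTR- and Pparg-Tdt:Foxp3-DTR+ mice, all given diphtheria toxin. Foxp3-DTR+ mice carry the toxin receptor in Foxp3-expressing cells, which the toxin kills in every tissue and not in VAT alone. Treg cells from VAT were of the genotypes OSM+/+ and OSMf/f, named Osm WT and Osm KO in the sample titles, with no Cre given. Ages, sexes, the length of the Treg and OSM cultures, and whether replicates were separate animals or cultures are not given in the sources used here, so p-values measure only the spread between these libraries.

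Smooth muscle cells and pericytes are the mural cells of blood vessels. Smooth muscle shortens when myosin, switched on by phosphorylation of its regulatory light chain, pulls on actin filaments rich in smooth muscle actin, and calponin, transgelin and tropomyosin sit along those filaments. Serum response factor (SRF), with its partners myocardin and the MRTFs, binds the CArG box found near many of these genes. In fat tissue, mural cells wrap the capillaries and small arteries. Some of the same contractile genes also mark myofibroblasts and stromal cells spread on culture plastic, so none of them names a cell type when read alone.

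All coordinates are from GENCODE M21 on GRCm38. Acta2 (chr19:34241090-34255590) encodes smooth muscle actin, Tagln (chr9:45929619-45936058) transgelin, Cnn1 (chr9:22099216-22109630) calponin and Tpm2 (chr4:43514711-43523765) beta-tropomyosin. Myh11 (chr16:14194535-14291372) encodes the smooth muscle myosin heavy chain and Myl9 (chr2:156775420-156781658) a regulatory light chain. Des (chr1:75360329-75368579) encodes desmin, an intermediate filament protein of muscle. Lmod1 (chr1:135324807-135368065) encodes a leiomodin, which starts new actin filaments. Rgs5 (chr1:169655501-169695813), a brake on G protein signals, and Cspg4 (chr9:56865033-56899870), the NG2 proteoglycan of the cell surface, are widely used pericyte markers. Tagln shares 1241 of its 1988 exon bases with the antisense gene Gm48529 and 108 with Pcsk7 on the opposite strand. The strand setting of the counting is not given, so Tagln counts are uncertain. Des shares 220 exon bases with the antisense gene Gm15179. Acta2 is one of a family of near-identical actins, and 2.72% of its distinct 25-base words also lie in transcripts of Acta1, Actc1, Actg2, Actb or Actg1.

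RefSeq promoter sequences on GRCm38.p6 were matched for 8 of the 10 genes, all but Tagln and Myh11. The 250 bases before the RefSeq start are shown for the genes with CArG matches, Acta2 and Myl9, and for Cnn1, which had the steepest fold rise with OSM. The GENCODE starts of these genes, given above, differ from the RefSeq starts and lie inside the windows shown. Capitals mark CArG boxes and CArG-like runs, which allow 1 G or C among the 6 inner bases.
Acta2, chr19:34255374-34255623, minus strand: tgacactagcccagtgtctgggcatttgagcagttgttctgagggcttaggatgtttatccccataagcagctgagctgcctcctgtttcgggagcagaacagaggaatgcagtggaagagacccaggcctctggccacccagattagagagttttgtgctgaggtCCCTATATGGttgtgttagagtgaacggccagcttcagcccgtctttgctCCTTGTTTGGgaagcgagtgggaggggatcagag
Myl9, chr2:156775214-156775463, plus strand: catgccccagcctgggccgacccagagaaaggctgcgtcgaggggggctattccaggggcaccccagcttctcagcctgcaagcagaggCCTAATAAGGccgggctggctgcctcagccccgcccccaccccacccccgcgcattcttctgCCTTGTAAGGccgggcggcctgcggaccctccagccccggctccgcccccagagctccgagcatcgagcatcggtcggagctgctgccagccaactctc
Cnn1, chr9:22099003-22099252, plus strand: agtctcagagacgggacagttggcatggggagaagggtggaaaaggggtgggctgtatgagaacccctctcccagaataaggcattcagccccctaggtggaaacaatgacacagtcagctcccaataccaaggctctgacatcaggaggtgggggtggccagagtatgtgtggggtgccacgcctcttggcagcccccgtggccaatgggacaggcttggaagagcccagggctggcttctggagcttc
Acta2 holds CArG-like runs from -84 to -75 and from -34 to -25. Myl9 holds a CArG box from -161 to -152 and a CArG-like run from -99 to -90. No run of either kind lies in this window of Cnn1, Tpm2, Des, Rgs5, Cspg4 or Lmod1. Over 32526 promoters of the same length, 1.48% hold a CArG box and 7.22% a CArG-like run, searched on both strands. CATTCC, read on both strands, lies in the windows of Acta2 and Lmod1 and in 12.57% of all promoters. TTCNNNGAA and TATAAA lie in none of the 8 windows, against 7.04% and 12.31% of all promoters. The matches describe letters only.

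Library totals ran from 1072147 counts in the OSM and PBS cultures to 12514783 in the fresh cells. Levels are in CPM, a gene's counts over the library total times 1e6, shown as mean ± SD. Preparation and depth differ between experiments, so levels across experiments are set side by side and not tested. Adipocyte markers (Adipoq, Plin1, Fabp4, Cidec and Lep) summed to 77.2 to 153 CPM in the fresh cells, to 27942 to 30355 in the adipogenic cultures and to 21666 to 31490.4 in the floating cells. Adipose stromal markers summed to 35475 to 44357 CPM in the fresh cells, and Treg markers to 2642 to 3375 CPM in the Treg cells. No other group exceeded 16.5 CPM for the Treg markers.

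**Figure D1:**
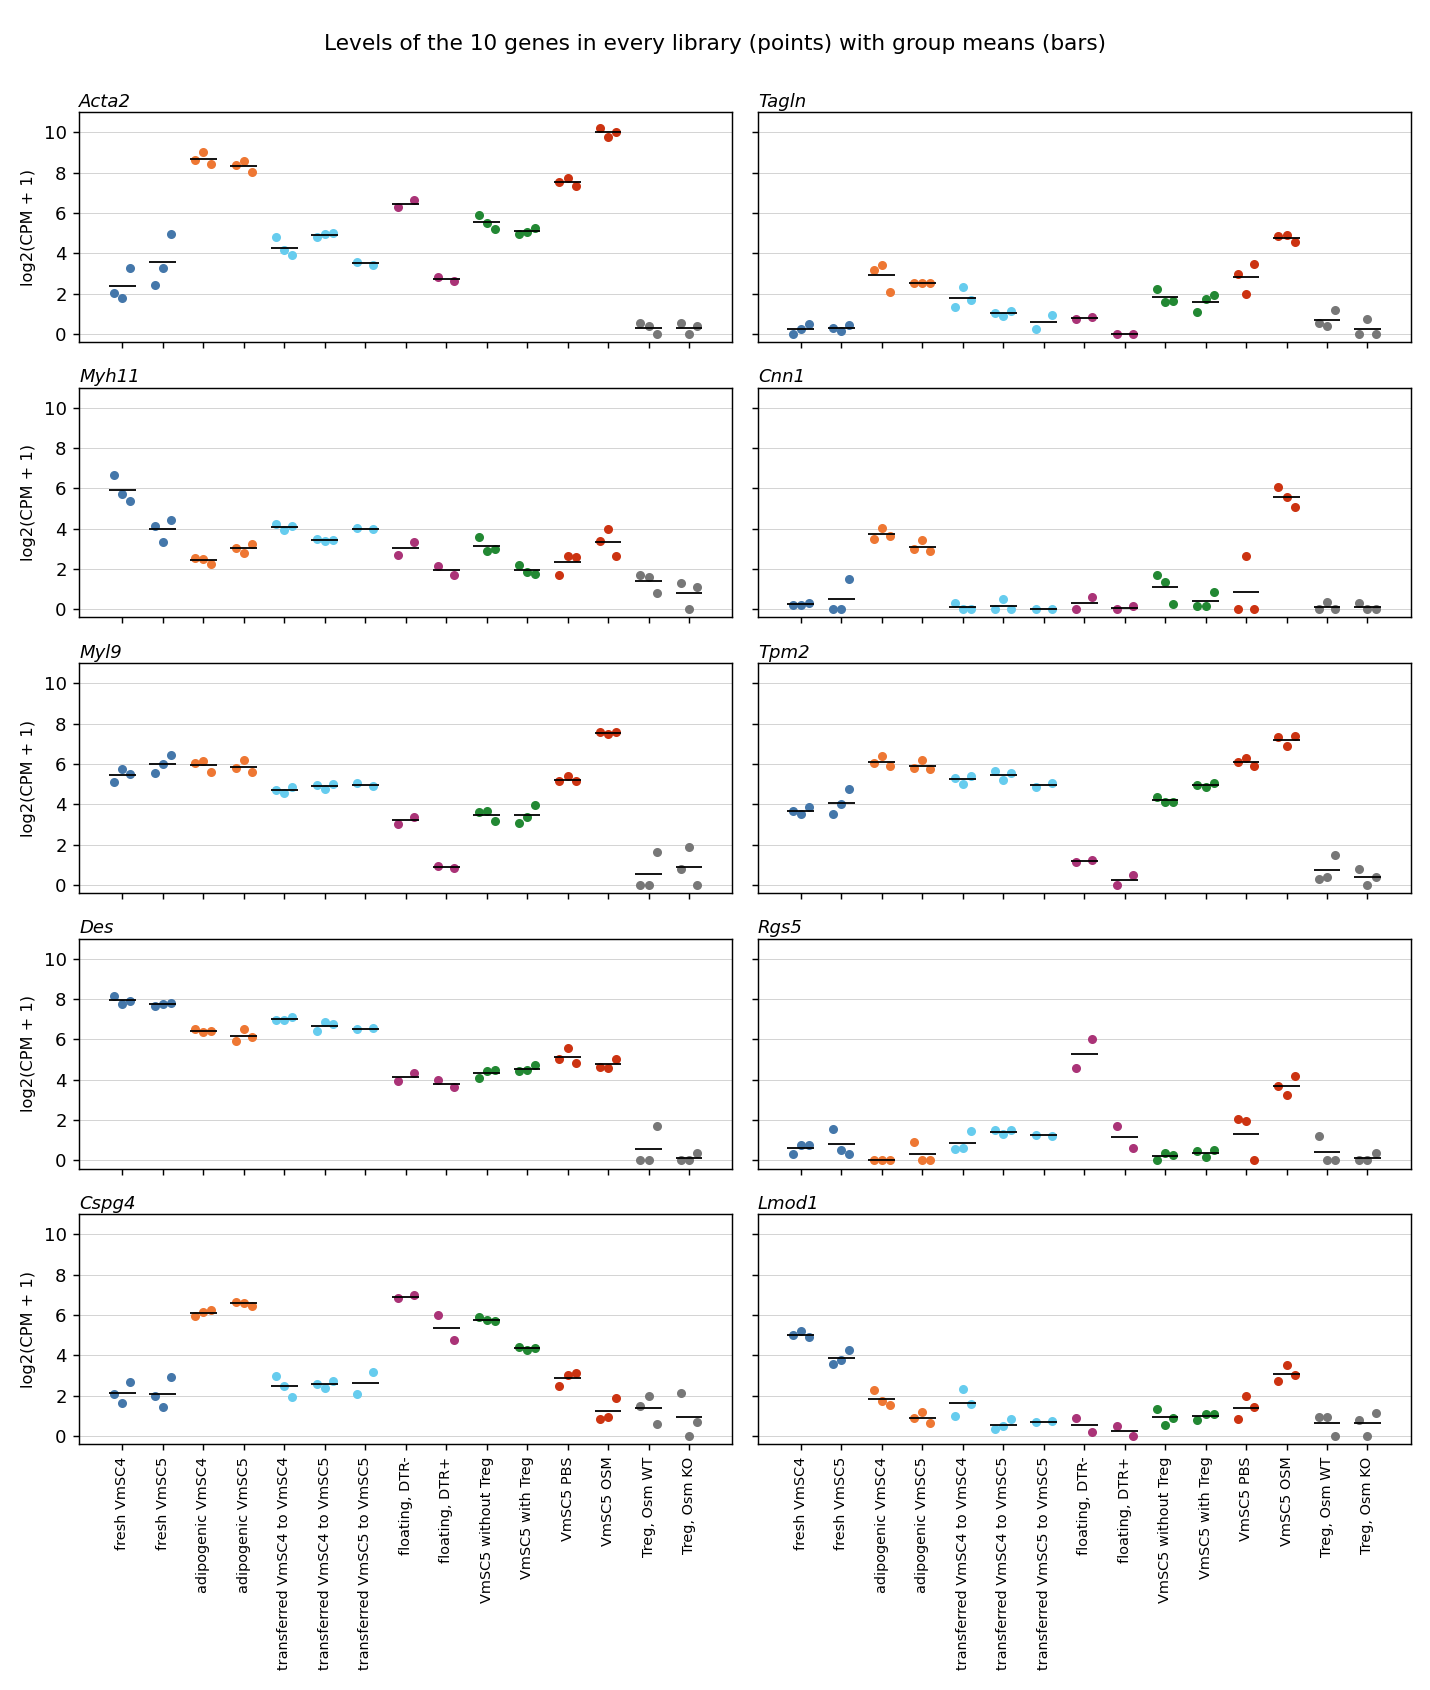
Levels of the 10 genes as log2(CPM + 1), 1 panel per gene and 1 point per library over the 15 groups, with group means as bars. Acta2 stands at 2.41 to 8.48 CPM in fresh VmSC4 and at 880.5 to 1183 CPM with OSM, while Des is highest in the fresh cells and Rgs5 in floating cells of DTR- mice.

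The 10 genes did not share 1 pattern across the 15 groups. Their summed level was 1495 ± 187 CPM in VmSC5 with OSM, the highest, and 5.06 ± 2.30 CPM in Osm KO Treg cells, the lowest. In the adipogenic cultures the sum was 726 ± 116 CPM for VmSC4 and 631 ± 101 for VmSC5, against 407 ± 54.2 and 346 ± 63.6 fresh. Acta2 made up 68.7% of the sum with OSM and 1.18% of it in fresh VmSC4, where Des made up 60.6%. Per kilobase of exon, Des stood first in both fresh groups (65.9 and 57.2 CPM per kb in VmSC4 and VmSC5), with Myl9 next at 37.3 and 56.1. Acta2 stood first per kilobase in every VmSC4 or VmSC5 culture, at 469 CPM per kb with OSM.

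Acta2, Tagln and Cnn1 had their highest means in cultured cells. Acta2 was highest with OSM (1030 ± 151 CPM), next in adipogenic VmSC4 (416 ± 91.0) and adipogenic VmSC5 (325 ± 62.0), whose library ranges overlapped, and then in the PBS cultures (183 ± 23.8). Floating cells of DTR- mice followed at 87.2 ± 15.6 CPM, with no overlap to the PBS cultures or to the VmSC5 cultures without Treg (46.6 ± 11.4). Tagln reached 26.4 ± 3.58 CPM with OSM and 7.0 ± 3.32 in adipogenic VmSC4. Cnn1 reached 48.4 ± 16.5 CPM with OSM, 12.4 ± 2.61 in adipogenic VmSC4 and 7.73 ± 1.89 in adipogenic VmSC5, and was under 2 CPM in the mean of every other group.

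Des, Myh11 and Lmod1 were highest in the fresh cells. Des was at 247 ± 36.7 CPM in fresh VmSC4 and 215 ± 13.1 in fresh VmSC5, and these ranges overlapped. Its group means in the transferred cells were 91.6 to 127 CPM, and in floating cells of DTR+ mice 13.1 ± 2.29. Myh11 was highest in fresh VmSC4, at 64.2 ± 31.0 CPM, with every library above every library of the next group. Lmod1 was at 31.7 ± 3.51 CPM in fresh VmSC4 and at 13.8 ± 3.81 in fresh VmSC5, and no library of the former overlapped the latter.

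The pericyte genes had yet another order. Rgs5 was at 43.1 ± 28.8 CPM in floating cells of DTR- mice, at 12.5 ± 4.36 with OSM, and under 2 CPM in the mean of the other 13 groups. Cspg4 was highest in floating cells of DTR- mice (119 ± 10.7 CPM), followed by adipogenic VmSC5 (94.2 ± 7.32) and adipogenic VmSC4 (68.0 ± 7.38), without overlap between neighbours. It stood at 3.68 ± 2.47 CPM in fresh VmSC5 and at 1.45 ± 1.02 CPM with OSM. Cspg4 was thus near its lowest in the group with the highest Acta2, and at 6.51 ± 1.64 CPM in the PBS cultures. The adipogenic cultures, next highest for Acta2, were high for Cspg4, so the 2 genes did not run opposite across groups.

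Most of the contractile genes rose in VmSC5 cultures with OSM. Of 7 genes tested 6 rose and none fell, where 45.8% of 9825 genes changed (22.8% rose and 23% fell) (edgeR, adjusted p under 0.05). Tagln, Cnn1 and Rgs5 passed the low-count filter only through their OSM libraries. Cspg4, with fewer counts under OSM, did not pass it, nor did Myh11 and Lmod1, with more. The split of the calls is thus partly set by the filter. Acta2, the smooth muscle actin, was at 1183, 880.5 and 1026 CPM in the 3 OSM libraries and at 182, 208 and 160.3 CPM in the 3 PBS libraries. Every OSM library lay far above every PBS library. The log2 fold change of Acta2 was 2.58 ± 0.11 (SE), a 5.98-fold rise (edgeR adjusted p = 2.73e-20).

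Myl9, the regulatory light chain that turns smooth muscle myosin on, was at 189, 176 and 189 CPM with OSM and at 34.0, 40.9 and 34.1 CPM with PBS. The groups stood apart and each was narrow. Its log2 fold change was 2.43 ± 0.14 (edgeR adjusted p = 1.64e-20). Cnn1, which binds actin and slows the myosin motor, was at 65.8, 46.6 and 32.9 CPM with OSM and at 0, 5.29 and 0 CPM with PBS. All 11 PBS counts of Cnn1 came from 1 library, and its log2 fold change of 4.38 ± 0.63 (edgeR adjusted p = 0.000364) rests on that low base. Without that library, PBS replicate 2, it was 8.96.

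Tagln was at 28.1, 28.9 and 22.3 CPM with OSM and at 6.95, 2.89 and 10.2 CPM with PBS. These groups did not overlap, and the log2 fold change was 2.20 ± 0.35 (edgeR adjusted p = 5.9e-07). Tpm2, which runs along the actin filament, was at 162, 117 and 166 CPM with OSM and at 68.0, 76.5 and 58.8 CPM with PBS. Its rise was smaller, a log2 fold change of 1.22 ± 0.14 (edgeR adjusted p = 3.74e-10), again without overlap.

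Both pericyte genes had few counts here. Rgs5 was at 12, 8.39 and 17.1 CPM with OSM and at 3.09, 2.89 and 0 CPM with PBS, 50 against 10 counts in all. The OSM libraries were all higher, with a log2 fold change of 2.61 ± 0.51 (edgeR adjusted p = 2.42e-05). Cspg4 went the other way: 6 counts in the OSM group and 30 in the PBS group, 4.22 times lower relative to pooled library totals (95% exact binomial interval 1.73 to 12.4, counting error only). It was too low for the fit.

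Desmin did not move with the actin genes. Des was at 24.1, 23.3 and 31.5 CPM with OSM and at 31.7, 47.1 and 27.3 CPM with PBS, with overlapping groups and a log2 fold change of -0.35 ± 0.23 (95% interval -0.81 to 0.11, edgeR adjusted p = 0.214). Myh11 and Lmod1 were too low for the fit. Myh11 had 36 counts with OSM and 20 with PBS, and the ratio relative to pooled totals was 2.13 (1.2 to 3.88, counting error only). Lmod1 had 29 against 9 counts, a ratio of 3.81 (1.76 to 9.16). The library ranges of Myh11 overlapped and those of Lmod1 did not.

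In related gene lists, chosen with earlier results of these data known, more genes rose than fell with OSM. Over all genes tested 22.8% rose and 23% fell. Of the further contractile genes 10 of 13 tested rose and 1 fell, with a median log2 fold change of 0.75 against 0.00 over all genes. They included Tpm1, another tropomyosin (402 ± 37.9 against 122 ± 11.3 CPM), Actg2, the enteric smooth muscle actin (33.7 ± 13.9 against 1.02 ± 0.37), and Csrp1, a LIM protein of smooth muscle (105 ± 1.66 against 41.4 ± 5.69). Of the further pericyte genes 7 of 12 rose and 1 fell (median 1.69), among them Ndufa4l2, a mitochondrial protein of hypoxic cells (181 ± 18.9 against 8.31 ± 1.52 CPM), and Pdgfrb, the PDGF receptor of mural and stromal cells (550 ± 38.2 against 251 ± 19.2). Kcnj8, a potassium channel subunit of pericytes, was at 20.2 ± 4.49 against 0.26 ± 0.45 CPM.

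Of the SRF and MRTF regulators and targets 9 of 13 rose and none fell (median 0.85), including Tgfb1i1, a focal adhesion protein (107 ± 5.73 against 51.8 ± 7.38 CPM). Of the myofibroblast matrix genes 10 of 12 rose and 1 fell (median 2.46). Cthrc1, a secreted matrix protein, was at 465 ± 36.5 against 11.5 ± 3.35 CPM, and Col3a1, a collagen chain, at 42881 ± 4842 against 6847 ± 236. Markers of other cells differed between these groups as well. The 5 adipocyte markers summed to 939 to 1382 CPM with OSM and to 10775 to 12659.8 with PBS, with Lep at 0 in both. The 8 stromal markers summed to 17103 to 18744 against 7213 to 7643 CPM and the 9 endothelial markers to 226 to 277 against 80.4 to 92.1. The 7 pericyte markers, which include Rgs5 and Cspg4, summed to 72.8 to 96.6 against 25.5 to 34.6 CPM. Their part in the rise of the contractile genes was not tested. In bulk RNA, a change in the number of cells of a type and a change in RNA per cell cannot be told apart, here or below.

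**Figure D2:**
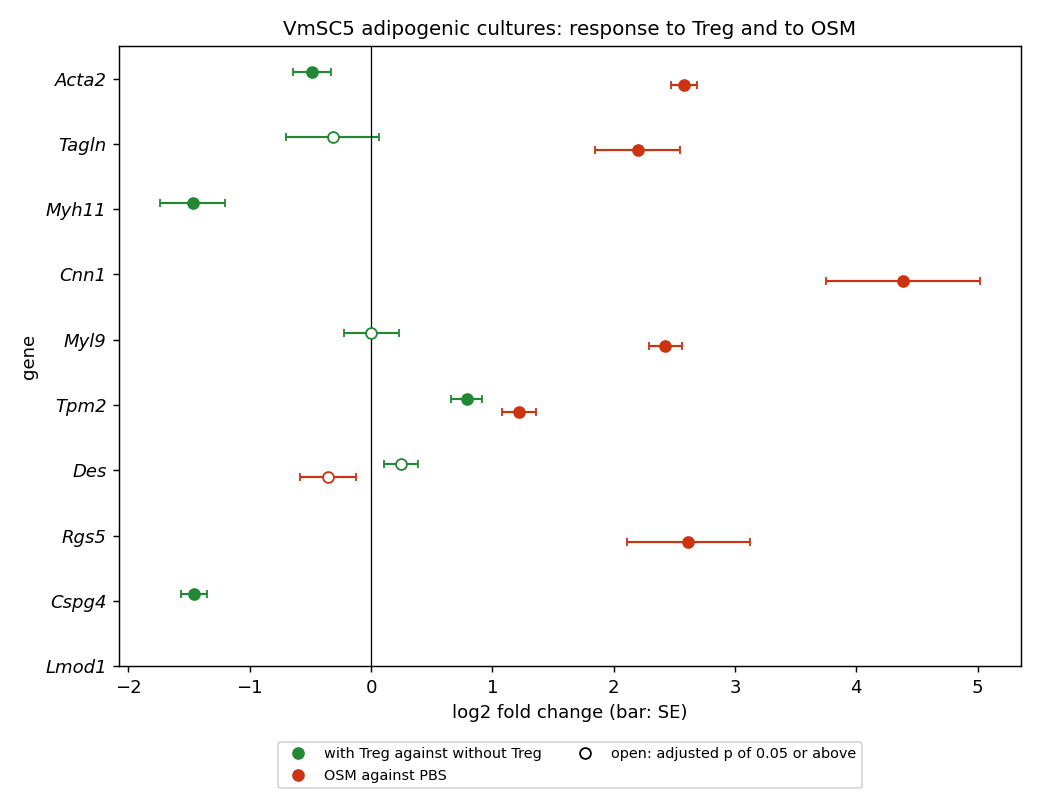
Log2 fold changes with SE for VmSC5 cultures with Treg against without Treg (green) and with OSM against PBS (red), for genes that passed the low-count filter; open points did not pass adjusted p of 0.05. With OSM Acta2, Tagln, Cnn1, Myl9 and Tpm2 lie between 1.22 and 4.38, while with Treg Acta2, Myh11 and Cspg4 lie below 0 and Tpm2 at 0.79.

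In VmSC5 cultures labelled with Treg, Cspg4, Myh11 and Acta2 were lower and Tpm2 was higher than without Treg. Of 7 genes tested 1 rose and 3 fell, where 43.4% of 12356 genes changed (22.4% rose and 21% fell; edgeR, adjusted p under 0.05). The members' share is of the size of that background. Cspg4, the NG2 proteoglycan, was at 20.2, 18.2 and 19.8 CPM with Treg and at 58.0, 52.3 and 50.8 CPM without. Every Treg library was lower, by a log2 fold change of -1.46 ± 0.11 (edgeR adjusted p = 6.13e-14).

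Tpm2 rose, from 19.8, 16.3 and 16.6 CPM without Treg to 30.5, 27.8 and 31.9 CPM with Treg. The groups stood apart, with a log2 fold change of 0.79 ± 0.13 (edgeR adjusted p = 3.09e-06). Myh11, the smooth muscle myosin heavy chain, was at 3.66, 2.64 and 2.37 CPM with Treg and at 11.1, 6.44 and 6.88 CPM without. It was lower in every Treg library, by -1.47 ± 0.27 on the log2 scale (edgeR adjusted p = 2.02e-05).

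Acta2 was at 30.1, 31.8 and 37.6 CPM with Treg and at 58.9, 44.5 and 36.4 CPM without. The ranges overlapped, and the log2 fold change was -0.49 ± 0.16 (edgeR adjusted p = 0.0221). That call was lost without replicate 1 of either group or without replicate 2 of either group (adjusted p 0.0716 to 0.117). Des (log2 fold change 0.24 ± 0.14), Tagln (-0.32 ± 0.38) and Myl9 (0.00 ± 0.23) did not pass the test (edgeR adjusted p = 0.162, 0.546 and 0.995). Cnn1, Rgs5 and Lmod1 were too low to test, with 8 against 24, 7 against 3 and 22 against 16 counts.

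The further contractile genes went in both directions with Treg, 9 of 13 higher and 4 lower (median 0.60 against 0.00 over all genes). Cald1, which binds actin and calmodulin, rose from 161 ± 11.5 to 265 ± 12.5 CPM, and Mylk, the kinase that phosphorylates the regulatory light chain, was lower at 56.5 ± 3.69 against 89.1 ± 4.18 CPM. Of the further pericyte genes 4 of 11 rose and 3 fell (median -0.07), with Pdgfrb higher at 233 ± 9.85 against 134 ± 12.5 CPM. The SRF list had 8 of 14 higher and none lower (median 0.34), and the matrix list 8 of 12 higher and none lower (median 0.75). Timp1, an inhibitor of matrix proteases, was at 669 ± 41.5 against 134 ± 9.55 CPM. The 5 adipocyte markers summed to 12474 to 14256 CPM with Treg and to 20165 to 21981 without, and the 8 stromal markers to 11678 to 12835 against 3961 to 4521. The 6 macrophage markers summed to 130 to 149 CPM with Treg and to 234 to 272 without. The 9 endothelial markers summed to 44.5 to 81.2 against 84.5 to 105 CPM, and the 7 mesothelial markers to 39.4 to 64.5 against 21.0 to 23.2. The 7 pericyte markers, which include Rgs5 and Cspg4, summed to 39.1 to 41.2 against 74.2 to 77.1 CPM. Cspg4 alone was at 19.4 ± 1.03 against 53.7 ± 3.82 CPM, so the lower pericyte sum largely repeats it. The part of these shifts in the member changes was not tested.

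How far the responses to OSM and to Treg differed was tested in a fit over both culture experiments. In 5 of 10 genes the OSM response was the more positive and in none the more negative, where 32.5% of 12112 genes differed (15% more positive and 17.5% more negative) (edgeR, adjusted p under 0.05). The differences on the log2 scale were 3.11 ± 0.27 for Acta2, 2.56 ± 0.55 for Tagln, 2.72 ± 0.55 for Myh11, 6.34 ± 1.30 for Cnn1 and 2.47 ± 0.26 for Myl9. The edgeR adjusted p-values were 6.94e-06, 0.00021, 9.56e-05, 0.00234 and 8.89e-10. Cnn1 was too low to test in the Treg cultures and Myh11 in the OSM cultures, so their differences rest in part on responses that were not tested singly. Cnn1, Rgs5 and Lmod1 passed the low-count filter of this fit through their OSM libraries, so the split of the calls is partly set by the filter. Without PBS replicate 2 the Cnn1 difference was 12.33.

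Tpm2, which rose in both experiments, differed by 0.48 ± 0.19 (95% interval 0.08 to 0.87, edgeR adjusted p = 0.0558). Lmod1 (2.00 ± 0.83), Des (-0.57 ± 0.27), Rgs5 (1.93 ± 1.44) and Cspg4 (-0.45 ± 0.58) did not pass the test (edgeR adjusted p = 0.0593, 0.103, 0.331 and 0.611). Tpm2, Lmod1 and Des each passed it when 1 of 2 or 3 particular libraries was left out (adjusted p 0.0112 to 0.0479). Des also passed with libraries scaled to their totals (-0.70, edgeR adjusted p = 0.0412). Depth and preparation differ between these experiments and cannot be told apart from the responses. Among the lists, 8 of 14 contractile, 7 of 15 pericyte, 7 of 14 SRF and 9 of 12 matrix genes had the more positive OSM response, and 1 of each the more negative.

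Adipogenic culture changed nearly all of the genes in VmSC4, some up and some down. Of 9 tested 6 rose and 3 fell against fresh VmSC4, where 70.4% of 13221 genes changed (31.9% rose and 38.5% fell; edgeR, adjusted p under 0.05). Acta2 rose from 3.12, 2.41 and 8.48 CPM fresh to 394, 516 and 339 CPM in culture, the largest log2 fold change of the 9 at 7.02 ± 0.79 (edgeR adjusted p = 4.43e-05). All cultured libraries lay far above all fresh ones. Cspg4 rose from 3.20, 2.06 and 5.31 CPM to 60.3, 68.7 and 75.0 CPM, a log2 fold change of 4.8 ± 0.38 (edgeR adjusted p = 1.06e-07).

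Tagln (log2 fold change 5.55 ± 0.69), Cnn1 (6.38 ± 0.87) and Tpm2 (3.10 ± 0.29) also rose in VmSC4. Tagln and Cnn1 each had 7 counts over the 3 fresh libraries, so the size of their folds rests on few reads. Both passed the low-count filter through the cultured libraries. Myl9 was at 60.8 ± 11.5 against 43.3 ± 9.26 CPM with overlapping libraries, and its call (1.04 ± 0.24, edgeR adjusted p = 0.00127) was lost when libraries were scaled to their totals (0.49, adjusted p = 0.0611). That scaling moved the median of all genes from -0.24 to -0.78 in this comparison.

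Myh11, Lmod1 and Des, which had their highest means in fresh VmSC4, fell. Myh11 was at 99.4, 52.4 and 40.8 CPM fresh and at 4.89, 4.60 and 3.73 CPM in culture (log2 fold change -3.32 ± 0.43, edgeR adjusted p = 4.69e-06). Lmod1 was at 30.7, 35.6 and 28.8 CPM fresh and at 3.80, 2.30 and 1.86 CPM in culture (-3.06 ± 0.34, edgeR adjusted p = 1.18e-08). Both were lower in every cultured library. Des was at 85.3 ± 4.84 against 247 ± 36.7 CPM, a log2 fold change of -1.0 ± 0.15 (edgeR adjusted p = 1.19e-06) that was -1.54 when scaled to library totals. Rgs5 had no count in the cultured VmSC4 and 19 in the fresh, 1.18-fold lower against a floor of 3 counts over the group. The exact binomial interval of the fresh over cultured ratio started at 0.87 (counting error only). These counts therefore do not establish that Rgs5 fell.

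In VmSC5, 5 of 9 rose and 2 fell in adipogenic culture, where 71% of 13221 genes changed (33.4% rose and 37.6% fell; edgeR, adjusted p under 0.05). Acta2 was at 4.43, 8.50 and 30.5 CPM fresh and at 334, 382 and 259 CPM in culture (log2 fold change 4.92 ± 0.71, edgeR adjusted p = 0.000223). Replicate 3 stood high among the fresh VmSC5 libraries, and all cultured libraries were still well above it. Cspg4 was at 2.88, 1.70 and 6.45 CPM fresh and at 100.2, 96.4 and 86.0 CPM in culture (5.12 ± 0.39, edgeR adjusted p = 5.9e-08). Tagln (4.75 ± 0.73), Cnn1 (4.08 ± 0.81) and Tpm2 (2.23 ± 0.28) rose as well. Tagln and Cnn1 passed the low-count filter through the cultured libraries, and Tagln had only 6 counts over the fresh VmSC5 libraries. All 16 fresh counts of Cnn1 were in replicate 3, without which its log2 fold change was 8.97.

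Lmod1 fell from 13.8 ± 3.81 to 0.90 ± 0.38 CPM in VmSC5 and Des from 215 ± 13.1 to 73.1 ± 16.7 CPM (log2 fold changes -3.46 ± 0.45 and -1.13 ± 0.15, edgeR adjusted p = 1.5e-07 and 1.96e-07). Myh11 (-0.66 ± 0.42) and Myl9 (0.26 ± 0.24) did not pass (edgeR adjusted p = 0.171 and 0.351). Myh11 passed without the low-count filter, with libraries scaled to their totals, and without fresh VmSC5 replicate 2 (adjusted p 0.0134 to 0.0307). Scaled to library totals, Myl9 turned to -0.16. It rose without fresh VmSC5 replicate 3 (0.51, adjusted p = 0.0392). Rgs5 had 2 counts in culture and 25 fresh and was not tested.

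In the further contractile and pericyte lists more genes fell than rose after culture. In VmSC4, 5 of 18 further contractile genes rose and 10 fell, and 3 of 17 pericyte genes rose and 10 fell, with medians of -1.19 and -1.73 against -0.24 over all genes. In VmSC5, 2 of 18 rose and 11 fell, and 3 of 17 rose and 11 fell. Vtn, vitronectin, dropped in VmSC4 from 185 ± 21.2 to 1.39 ± 0.86 CPM and Pdgfrb from 488 ± 106 to 43.3 ± 2.82, while Tpm1 rose from 78.8 ± 10.5 to 167 ± 16.3 CPM. The SRF list had 5 of 14 higher and 6 lower in VmSC4 and 3 and 6 in VmSC5, and the matrix list 4 of 12 higher and 6 lower and 3 and 5. The adipocyte markers went from 77.2 to 153 CPM fresh to at least 27942 in culture, and the stromal markers from at least 35475 to at most 1795. The part of that shift in the member changes was not tested.

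Set side by side after culture, none of the 9 genes tested differed between VmSC5 and VmSC4, where 0.34% of 13221 genes did (0.129% higher and 0.212% lower; edgeR, adjusted p under 0.05). At an unadjusted p under 0.05 there was 1, Lmod1, and DESeq2 called none. Adjusted p ran from 0.504 to 0.972, and the 95% interval for Acta2 ran from -1.74 to 0.96 on the log2 scale. Cspg4 was at 86.0 to 100.2 CPM in VmSC5 and at 60.3 to 75.0 CPM in VmSC4 without overlap, and passed when the 2 cultured groups were fitted alone (0.47, adjusted p = 0.0364).

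The responses of VmSC5 and VmSC4 to culture differed in 1 of 9 genes, where 2.87% of 13221 genes differed (1.85% more positive and 1.01% more negative; edgeR, adjusted p under 0.05). That gene was Myh11, whose response in VmSC5 was less negative by 2.66 ± 0.64 on the log2 scale (edgeR adjusted p = 0.0374). It was at 16.4, 9.04 and 20.8 CPM in fresh VmSC5 and at 7.31, 6.03 and 8.55 CPM in cultured VmSC5. The call was lost when any of 7 libraries was left out: fresh VmSC4 replicate 2 and each of the 6 cultured libraries (adjusted p 0.0554 to 0.125). The difference was 2.53 to 2.80 in those 7 fits. Acta2 differed by -2.09 ± 0.96 and did not pass (edgeR adjusted p = 0.314). Tpm2 (-0.87 ± 0.39) and Myl9 (-0.78 ± 0.34) did not pass either (edgeR adjusted p = 0.255 and 0.252). Without fresh VmSC5 replicate 1, Tpm2 passed (-1.14, edgeR adjusted p = 0.0345). Cnn1, Tagln, Des, Cspg4 and Lmod1 did not pass (edgeR adjusted p 0.362 to 0.825).

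**Figure D3:**
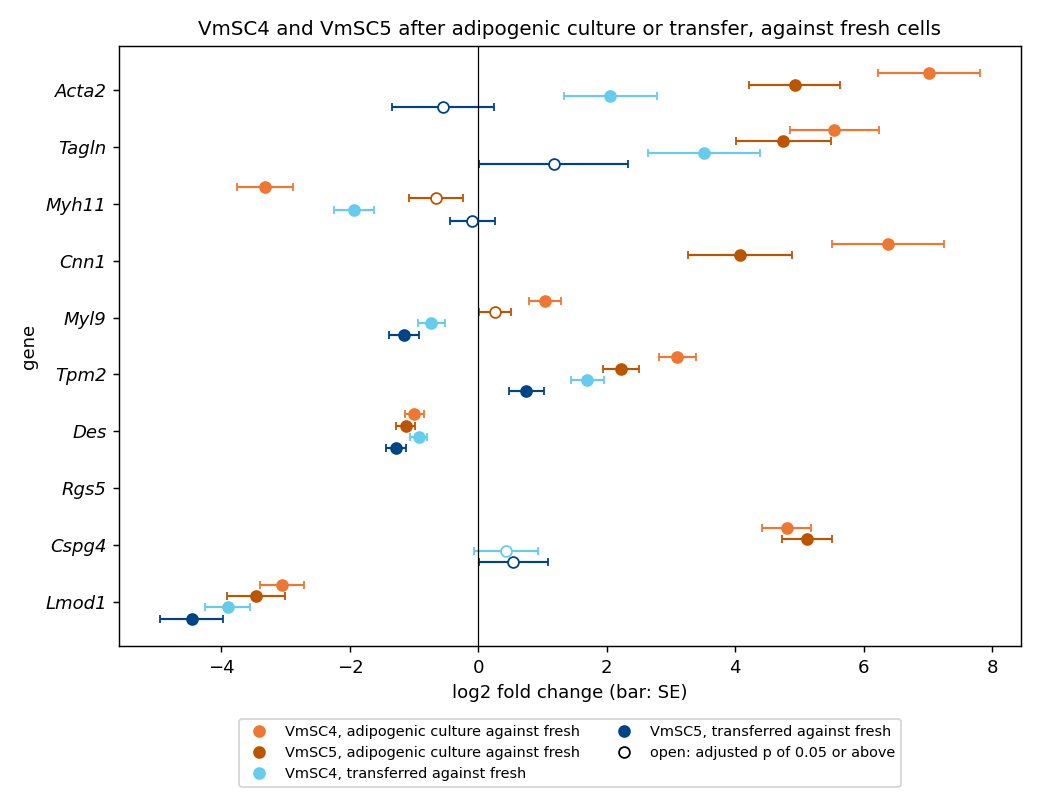
Log2 fold changes with SE against fresh cells for VmSC4 and VmSC5 after adipogenic culture (orange and brown) and after transfer (light and dark blue); open points did not pass adjusted p of 0.05, and Rgs5 was too low to test. Des and Lmod1 lie below 0 in all 4 comparisons, and Cspg4 lies at 4.8 and 5.12 after culture and at 0.43 and 0.55 after transfer.

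Fresh VmSC4 carried more of the smooth muscle myosin and leiomodin transcripts than fresh VmSC5. Of 8 genes tested 1 was higher and 2 were lower in VmSC5, where 18.4% of 13947 genes differed (7.41% higher and 11% lower; edgeR, adjusted p under 0.05). Myh11 was at 16.4, 9.04 and 20.8 CPM in VmSC5 and at 99.4, 52.4 and 40.8 CPM in VmSC4. The ranges stood apart, with a log2 fold change of -1.97 ± 0.29 (edgeR adjusted p = 0.000119).

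Lmod1 was at 10.7, 12.7 and 18.1 CPM in VmSC5 and at 30.7, 35.6 and 28.8 CPM in VmSC4, also without overlap (-1.10 ± 0.25, edgeR adjusted p = 0.00302). Myl9 was higher in VmSC5, at 46.3, 62.4 and 86.9 CPM against 33.7, 52.2 and 44.0 CPM. Its ranges overlapped, and its call (0.69 ± 0.19, edgeR adjusted p = 0.0144) was lost with the 2 groups fitted alone (adjusted p = 0.0525), without VmSC4 replicate 1 (0.0761) and without VmSC5 replicate 3 (0.122). Des differed by -0.11 ± 0.13 (edgeR adjusted p = 0.582).

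Acta2 was uneven across the fresh libraries. The test found no call for it at a log2 fold change of 1.72 ± 0.69 (edgeR adjusted p = 0.123). It passed without fresh VmSC5 replicate 1 (adjusted p = 0.0218). Tpm2 (0.62 ± 0.25) did not pass at an adjusted p of 0.0854, but did without the low-count filter (0.0261) and without fresh VmSC5 replicate 1 (0.00719). Cspg4 (0.15 ± 0.46) and Tagln (0.20 ± 1.02) did not pass (edgeR adjusted p = 0.868 and 0.922). Cnn1 and Rgs5 were too low to test, with 16 and 25 counts in VmSC5 and 7 and 19 in VmSC4. Fresh VmSC5 replicate 3 held all 16 of the Cnn1 counts and the highest Acta2 and Tpm2 of both fresh groups.

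Of the further contractile genes 3 of 18 were higher and 3 lower in fresh VmSC5. The lower ones were Mylk (67.9 ± 18.9 against 162 ± 25.7 CPM), Pdlim3, a LIM protein of the actin cytoskeleton (7.65 ± 2.58 against 27.3 ± 10.1), and Csrp1 (98.9 ± 16.2 against 183 ± 5.8). The pericyte list had 5 of 16 higher and 2 lower, the SRF list 5 of 14 higher and the matrix list 2 of 12 higher, neither with a lower one. The 7 pericyte markers, which include Rgs5 and Cspg4, summed to 20.6 to 44.4 CPM in VmSC4 and to 24.9 to 58.4 in VmSC5. The 9 endothelial markers summed to 59.2 to 82.3 and 99.4 to 134 CPM. The 7 mesothelial markers summed to 89.4 to 122 CPM in VmSC4 and to 52.1 to 72.1 in VmSC5, and the 6 macrophage markers to 10.1 to 24.5 and 3.81 to 5.42 CPM, both higher in every VmSC4 library as were Myh11 and Lmod1. Their part in those differences was not tested. Krt19 was at 0 in fresh VmSC4, and Msln, Upk3b, Upk1b and Lrrn4, markers of mesothelium, were at 0 in fresh VmSC5.

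Transferred VmSC4 that stayed VmSC4 differed from fresh VmSC4 in 7 of 8 genes, 3 higher and 4 lower, where 46.1% of 13947 genes differed (21.4% higher and 24.7% lower; edgeR, adjusted p under 0.05). Lmod1 was at 1.01, 4.07 and 1.98 CPM after transfer and at 28.8 CPM in its lowest fresh library (-3.90 ± 0.35, edgeR adjusted p = 2.17e-09). Des was at 123, 122 and 136 CPM (-0.93 ± 0.13, edgeR adjusted p = 2.94e-06), and Myh11 at 17.9, 14.2 and 16.7 CPM (-1.93 ± 0.31, edgeR adjusted p = 5.12e-05). All 3 were lower in every transferred library.

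Myl9 was lower too (-0.73 ± 0.21, edgeR adjusted p = 0.00685). Tpm2 was at 39.1, 31.5 and 40.6 CPM against 11.5, 10.5 and 13.4 CPM fresh (1.70 ± 0.25, edgeR adjusted p = 1.06e-05), higher in every transferred library. Tagln was higher by 3.51 ± 0.87 on 25 against 7 counts (edgeR adjusted p = 0.00182). It passed the low-count filter only through these transferred libraries. Acta2 was at 19.1 ± 6.74 against 4.67 ± 3.32 CPM, and its call (2.06 ± 0.73, edgeR adjusted p = 0.0409) was lost without the low-count filter and without fresh replicates 1 or 2 or any 1 of the transferred libraries (adjusted p 0.0552 to 0.127). Cspg4 (0.43 ± 0.50) did not pass, with an adjusted p of 0.51.

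Transferred VmSC5 differed from fresh VmSC5 in 4 of 8 genes, 1 higher and 3 lower, where 46.4% of 13947 genes differed (23.9% higher and 22.4% lower; edgeR, adjusted p under 0.05). Lmod1 was at 0.60 and 0.67 CPM after transfer (-4.46 ± 0.49, edgeR adjusted p = 6.88e-08), Des at 89.7 and 93.5 CPM (-1.28 ± 0.15, edgeR adjusted p = 2.26e-07) and Myl9 at 32.4 and 28.7 CPM (-1.15 ± 0.24, edgeR adjusted p = 0.000306). All 3 lay below every fresh library. Tpm2 was at 27.8 and 31.8 CPM (0.75 ± 0.28, edgeR adjusted p = 0.0296), a call lost with the 2 groups fitted alone, without fresh replicates 1 or 2 and without either transferred library (adjusted p 0.0747 to 0.176). Acta2, Tagln, Myh11 and Cspg4 did not pass (edgeR adjusted p 0.423 to 0.854).

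None of the 8 genes tested differed between the transferred groups (edgeR, adjusted p under 0.05), which share libraries among these comparisons. For VmSC4-derived VmSC5 against VmSC4-derived VmSC4 1.77% of 13947 genes differed (0.746% higher, 1.03% lower). For VmSC5-derived against VmSC4-derived VmSC5 1.15% differed (0.624% higher, 0.523% lower), and for VmSC5-derived VmSC5 against VmSC4-derived VmSC4 3.41% (1.96% higher, 1.44% lower). At an unadjusted p under 0.05 there were 1 (Lmod1), 1 (Tpm2) and 3 (Tagln, Des and Lmod1) of the genes, and DESeq2 called none in any of the 3. Acta2 was at 26.7, 30.1 and 31.3 CPM in VmSC4-derived VmSC5 and at 10.9 and 9.79 CPM in VmSC5-derived VmSC5. These did not overlap, and the difference of -1.58 ± 0.81 passed with the 2 groups fitted alone and under no other alternative run (-1.58, adjusted p = 0.000101). Des in VmSC5-derived VmSC5 against VmSC4-derived VmSC4 (-0.47 ± 0.15, adjusted p = 0.096) passed in that fit as well (-0.51, adjusted p = 0.014).

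The matrix list rose after transfer, 10 of 12 genes in VmSC4 and 9 of 12 in VmSC5, with none lower and medians of 2.62 and 1.70 against -0.02 and 0.01 over all genes. Col3a1 was at 71087 ± 981 CPM in transferred and 9618 ± 3548 in fresh VmSC4. The 8 stromal markers summed to 75858 to 79487 CPM in transferred against 35475 to 44357 in fresh VmSC4, and to 48970.4 to 50993 against 35819 to 39404 in VmSC5. The 9 endothelial markers summed to 75.9 to 121 against 59.2 to 82.3 CPM in VmSC4 and to 195 to 259 against 99.4 to 134 in VmSC5. The 5 adipocyte markers were lower, at 17.6 to 42.6 against 102 to 153 CPM in VmSC4 and 21.8 to 42.03 against 77.2 to 101 in VmSC5. Their part in the member differences was not tested. The further contractile genes had 5 of 18 higher and 6 lower in VmSC4 and 3 and 5 in VmSC5. The pericyte list had 4 of 16 higher and 5 lower in VmSC4 and 3 and 5 in VmSC5, and the SRF list 7 of 14 higher and 3 lower, and 4 and 4. The fresh groups serve as controls for both the culture and the transfer comparisons, so these are not independent of each other.

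In floating adipocytes, after toxin in all mice, Acta2 and Rgs5 were lower in Foxp3-DTR+ than in Foxp3-DTR- mice. Of 6 genes tested these 2 were lower and none higher, where 2.43% of 11803 genes differed (0.491% higher and 1.94% lower; edgeR, adjusted p under 0.05). Rgs5 and Myl9 passed the low-count filter through the DTR- libraries. Acta2 was at 6.01 and 5.18 CPM in DTR+ and at 76.2 and 98.3 CPM in DTR- libraries (-3.52 ± 0.66, edgeR adjusted p = 0.00815). Rgs5 was at 2.27 and 0.55 CPM in DTR+ and at 22.8 and 63.5 CPM in DTR- libraries (-4.60 ± 0.81, edgeR adjusted p = 0.00504). Neither gene overlapped between genotypes. The DTR+ libraries were the least alike of any replicate pair, with a chi-square per degree of freedom of 130.4 and r = 0.926 between log2 levels, against 25.7 and 0.973 for the DTR- pair.

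Both calls were lost when libraries were scaled to their totals (adjusted p = 0.268 for each), where no gene at all was called, at log2 fold changes of -3.96 for Acta2 and -4.92 for Rgs5. Without DTR- replicate 3 the values were -3.39 and -3.77 (adjusted p 0.431 and 0.347). Without DTR- replicate 2 the Acta2 value was -3.62 (adjusted p 0.225). Myl9 was at 0.93 and 0.82 CPM in DTR+ and at 7.25 and 9.38 CPM in DTR- libraries. It did not pass (-2.80 ± 0.85, edgeR adjusted p = 0.0907), though it did without either DTR+ library (0.0141 and 0.0103). Cspg4 was at 62.9 and 25.9 CPM against 112 and 127 CPM and did not pass (-1.10 ± 0.59, edgeR adjusted p = 0.359), except without DTR+ replicate 2 (0.00281).

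Des was at 14.7 and 11.4 CPM in DTR+ and at 14.2 and 19.3 CPM in DTR- libraries, with a log2 fold change of 0.08 ± 0.64 (edgeR adjusted p = 0.962). Its groups overlapped, and its sign turned with the scaling to library totals (-0.36). Myh11 (-0.94 ± 0.75) did not pass (edgeR adjusted p = 0.533). Tagln had no count in DTR+ and 10 in DTR- libraries, 3.69-fold lower against a floor of 3 counts over the group. The exact binomial interval of the DTR- over DTR+ ratio started at 2.48 (counting error only). Tpm2 had 3 against 17 counts, a ratio of 6.27 (1.82 to 33.4, counting error only), and Cnn1 and Lmod1 had 1 against 4 and 3 against 6.

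Markers of other vascular and stromal cells moved with these genes. The 9 endothelial markers summed to 20.9 to 51.5 CPM in DTR+ and to 495 to 601 CPM in DTR- libraries, with none at 0 in a group, and Pecam1, the endothelial adhesion protein, was at 6.42 ± 7.54 against 118 ± 15.6 CPM. The 7 pericyte markers, which include Rgs5 and Cspg4, summed to 29.9 to 72.0 against 160 to 225 CPM. Cspg4 (44.4 ± 26.1 against 119 ± 10.7 CPM) and Rgs5 (1.41 ± 1.22 against 43.1 ± 28.8) made up most of that sum, so it largely repeats them. The 6 macrophage markers summed to 81.0 to 122 against 293 to 365 CPM, the 8 stromal markers to 242 to 273 against 471 to 811, and the 7 mesothelial markers to 4.50 to 21.8 against 33.2 to 95.3. The 5 adipocyte markers summed to 23833 to 31490.4 against 21666 to 24797 CPM. The 6 skeletal muscle markers summed to 97.2 to 205 CPM in DTR+ and to 48.4 to 52.1 in DTR- libraries, and in DTR+ all of it was Acta1, skeletal muscle actin, with the other 5 at 0. Their part in the lower Acta2 and Rgs5 was not tested. The further contractile genes had 3 of 14 lower, the pericyte list 2 of 14 and the matrix list 3 of 8, none higher, and the SRF list had no gene called of 12. Flna, which crosslinks actin, was at 32.1 ± 0.67 against 301 ± 173 CPM.

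**Figure D4:**
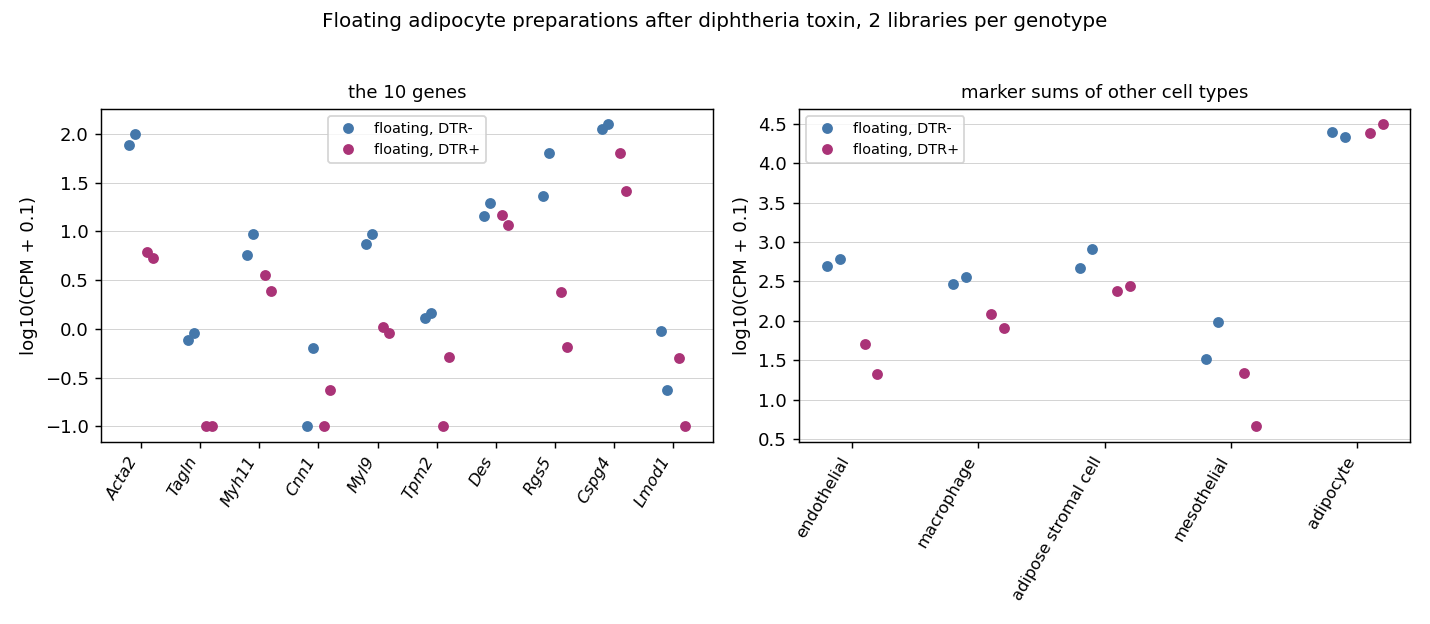
Floating adipocyte libraries of DTR- (blue) and DTR+ (purple) mice on a log10(CPM + 0.1) axis, the 10 genes at left and summed markers of 5 cell types at right, 1 point per library. Acta2, Rgs5 and the endothelial, macrophage, stromal and mesothelial sums are lower in both DTR+ libraries, and the adipocyte sums overlap.

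VAT Treg cells carried almost none of these transcripts. Over 3 libraries each gene had at most 20 counts in Osm WT and at most 16 in Osm KO cells, and none passed the low-count filter. Cspg4 (20 and 16 counts) and Myh11 (20 and 10) had the most, and Acta2 had 3 in each group. No test of the 10 genes was made in this comparison, in which 0.0526% of 11416 genes differed (0.00876% higher and 0.0438% lower; edgeR, adjusted p under 0.05; 1158 at an unadjusted p under 0.05, 50 by DESeq2).

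Across the 15 group means of log2(CPM + 1) the genes fell into looser and tighter pairs, given as Pearson r without a test, since groups share experiments, depth and preparation. Tpm2 and Myl9 had r = 0.889, Tagln and Cnn1 0.886, Acta2 and Tagln 0.851, Myh11 and Des 0.826 and Acta2 and Cnn1 0.813. Acta2 and Myh11, smooth muscle actin and the myosin that pulls on it, had r = 0.145, Rgs5 and Cspg4, both pericyte genes, 0.119, and Cspg4 and Lmod1 -0.374. Acta2 and Cspg4 had r = 0.436.

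Among 10599 genes that reached 20 CPM in a group, the closest to Acta2 were Pakap (r = 0.903), Mettl9 (0.900) and Nectin2 (0.885). Closest to Tpm2 were Timp1 (0.979), Tmem45a (0.972) and Efemp2 (0.956), to Des Pgpep1 (0.973), Plpp7 (0.968) and Pttg1ip (0.966), and to Myl9 Pdia5 (0.946), Gorasp2 (0.944) and Epdr1 (0.942). For Tagln they were Kng1 (0.942), Mpp6 (0.919) and Steap1 (0.913), and for Cnn1 Serpinb2 (0.933), Cda (0.931) and Kng1 (0.906). For Rgs5 they were Mmrn2 (0.931), Dll4 (0.925) and Afap1l1 (0.924), for Cspg4 Ppara (0.964), Odf3l1 (0.963) and Tmem182 (0.963), for Myh11 Garnl3 (0.901), Vwa1 (0.898) and Cpxm2 (0.894), and for Lmod1 Pabpn1 (0.949), Dio3os (0.929) and Pgf (0.866).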

How the data were processed

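RNA-seq counts per gene were deposited by the authors as 1 table of raw counts over 42 libraries. Per the submitters' processing notes, STAR 2.7.3a and featureCounts were used on mm10; the annotation release, the strand setting and the handling of multi-mapped reads are not given in the sources used here. Per the labels, sorted libraries came from 1000 cells, culture libraries from a share of a lysed well, and floating-cell libraries from 2 ng RNA. Library totals and their ranges are in the report.

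The members and the gene lists were chosen with earlier results of these data known. Tests used the quasi-likelihood F test of edgeR 4.0.16 (R 4.3.3, limma 3.58.1) with robust dispersion, TMM scaling and a minimum count of 10, with Benjamini-Hochberg adjustment over all genes tested and a threshold of 0.05, two-sided. Fits were made per experiment: fresh with transferred cells, fresh with adipogenic cells, floating cells, Treg cultures, OSM cultures, Treg cells, and both culture experiments for the difference of responses. SE is the log2 fold change over the square root of F, and its 95% interval uses the t quantile at the fit's degrees of freedom. Each kind of fit, though not every comparison, was tested on simulated data first. CPM uses library totals, so a ratio of CPM can differ from the TMM-scaled log2 fold change. Ratios of counts have exact binomial intervals of 95%, and the floor is 3 counts.

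All 10 members are named throughout. A list gene is named if it was called, was among the 3 smallest adjusted p of its list and reached 20 CPM in a group; a marker gene is named beside its sum. Genes most alike are the 3 with the highest Pearson r over group means, predicted genes left out. The lists hold 22 further contractile, 18 pericyte, 16 SRF and MRTF and 12 matrix genes. Alternatives were DESeq2 1.42.0, other scalings, no low-count filter, the compared groups alone, a replicate block and leaving out each library; scaling to library totals and the crossed block were added after the data were seen. Libraries of a group differed by more than sampling noise (chi-square per degree of freedom of 1.48 to 130.4), so each was counted once.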

Additional observations from a re-analysis of the deposited data

Results flagged for a closer look

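Responses that differed between groups under the same kind of contrast are gathered here. The Myh11 response to adipogenic culture differed between VmSC5 and VmSC4 by 2.66 ± 0.64 on the log2 scale (edgeR adjusted p = 0.0374). That call was lost without fresh VmSC4 replicate 2 and without any single cultured library (edgeR adjusted p 0.0554 to 0.125). The difference was 2.53 to 2.80 in those fits. The response to OSM minus the response to Treg was 3.11 ± 0.27 for Acta2, 2.56 ± 0.55 for Tagln, 2.72 ± 0.55 for Myh11, 6.34 ± 1.30 for Cnn1 and 2.47 ± 0.26 for Myl9 (edgeR adjusted p = 6.94e-06, 0.00021, 9.56e-05, 0.00234 and 8.89e-10). Cnn1 with Treg and Myh11 with OSM were too low to test singly, and the Cnn1 value was 12.33 without PBS replicate 2. Cnn1 passed the low-count filter of that fit through its OSM libraries.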

How the results depend on the processing

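Same-numbered deviations correlated between -0.111 and 0.086 in the stromal, culture and Treg cell fits, so replicate numbers showed no pairing there. In the floating cells they correlated at -0.397 and crossed numbers at 0.397. With 2 libraries a genotype these values must mirror each other, so they cannot decide whether libraries were paired. The replicate block changed no call of the 10 genes. It turned Acta2 of transferred against fresh VmSC5 to 0.014 and Myl9 with Treg to -0.028, and called 111 genes in the floating cells, against 1055 with crossed numbers, where 3 of the 10 genes were called against 2 otherwise. Over 652 values of single genes under alternatives other than leaving out a library, 632 kept their direction and side of the threshold, and 688 of 756 did so with a library left out.

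Scaling to library totals moved the median of all genes by -0.543 and -0.425 in the VmSC4 and VmSC5 culture comparisons, by 0.116 in their difference, by -0.360 in the floating cells, by -0.102 with OSM and by -0.131 in the OSM minus Treg difference. It called 0 members and 0 genes in the floating cells, and turned Myl9 of cultured VmSC5 to -0.163, Myl9 with Treg to -0.009 and Des of floating cells to -0.358. The higher share of all calls went from 40.3% to 26.8% between the fresh cells, from 42.1% to 20.0% and from 54.4% to 68.4% for VmSC4-derived VmSC5 against VmSC4-derived VmSC4 and VmSC5-derived against VmSC4-derived VmSC5, from 45.3% to 30.0% and 47.0% to 35.2% after culture of VmSC4 and VmSC5, from 64.6% to 81.0% in their difference, from 46.1% to 33.8% for OSM minus Treg and from 16.7% to 0% in Treg cells. Myl9 with Treg was -0.067 with both culture experiments fitted. Of 150 group levels 29 moved by over 1 SD with TMM-scaled totals.

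Fitting the compared groups alone called 1 member each (Acta2, Des and Cspg4) for VmSC5-derived against VmSC4-derived VmSC5, for VmSC5-derived VmSC5 against VmSC4-derived VmSC4, and between the cultured populations, with 529, 841 and 215 genes in all, and 893 genes for VmSC4-derived VmSC5 against VmSC4-derived VmSC4. DESeq2 and no low-count filter called 478 and 450 genes for the last, 268 and 314 for VmSC5-derived against VmSC4-derived VmSC5, 104 and 167 between the cultured populations, 620 and 644 for their response difference, and 50 and 199 in Treg cells. DESeq2 called 509 in the floating cells.

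Without 1 library each, members called ran from 2 to 5 between fresh populations, from 0 to 2 for the difference of culture responses and from 0 to 4 in floating cells, and all genes called from 39 to 166, 31 to 84 and 131 to 327 for VmSC4-derived VmSC5 against VmSC4-derived VmSC4, VmSC5-derived against VmSC4-derived VmSC5 and VmSC5-derived VmSC5 against VmSC4-derived VmSC4, 17 to 99 between cultured populations, 155 to 661 for their difference, 6 to 5370 in floating cells and 0 to 586 in Treg cells. Values of single genes that changed sign without a library, none of them called, ran as follows. Between fresh populations Tagln ran from -0.368 to 1.284, Cspg4 from -0.510 to 0.583 and Des from -0.210 to 0.007. Cspg4 ran from -0.151 to 0.549 for VmSC4-derived VmSC5 against VmSC4-derived VmSC4 and from -0.558 to 0.761 for VmSC5-derived VmSC5 against it. For VmSC5-derived against VmSC4-derived VmSC5, Myl9 ran from -0.076 to 0.082, Cspg4 from -0.692 to 0.635 and Lmod1 from -0.020 to 0.775. For transferred against fresh VmSC5, Acta2 ran from -0.987 to 0.576, Tagln from -0.176 to 1.876, Myh11 from -0.357 to 0.141 and Cspg4 from -0.259 to 1.180. Myl9 between cultured populations ran from -0.297 to 0.033, and in the difference of culture responses Cnn1 ran from -2.900 to 2.631 and Cspg4 from -0.094 to 0.998. Des in floating cells ran from -0.094 to 0.250, and with Treg Tagln ran from -0.572 to 0.013 and Myl9 from -0.324 to 0.212.

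Depth limits Tagln, Cnn1, Rgs5 and Lmod1, which had few counts in many groups. Comparisons of floating cells rest on 2 libraries a genotype.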
